A study of Homo sapiens with 20 samples.

Results

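The 20 libraries compared here measured whether extracellular NAMPT (eNAMPT) and the growth factor PDGF-BB, given together to human pericytes, changed each gene by more, as much or less than expected from each agent alone. All 20 of the 20 libraries of the series entered the contrast, and 12111 of the 58676 genes in the count table passed the filter on low counts and were tested. The cells were one line of immortalized wild-type human pericytes from Celther, kept in DMEM with FBS. The groups were cells given eNAMPT at 500 ng/mL together with PDGF-BB at 20 ng/mL (labelled NAMPT+PDGF-BB), cells given PDGF-BB at 20 ng/mL, cells given eNAMPT at 500 ng/mL (labelled NAMPT), and untreated control cells (labelled ctrl). Each group held 5 libraries, labelled as biological replicates 1 to 5, of total RNA taken at 4 hours. A single line at 1 time and 1 dose of each agent limits what the groups stand for.

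Pericytes are mural cells that wrap capillaries, and PDGF-BB is the ligand that recruits them through the receptor PDGFRB, which signals through the ERK kinases among other routes. NAMPT makes a precursor of NAD inside cells, and its secreted form has been described as a ligand of TLR4, a receptor that activates the transcription factor NF-kB. NF-kB switches on chemokines, adhesion molecules and its own inhibitors, while ERK signalling switches on immediate early genes and the phosphatases that turn ERK off. Promoters that bind both NF-kB and AP-1, the factor built from immediate early proteins, are a textbook case of joint control.

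Additivity was read on a pair of scales. On the log2 scale, the interaction is the log2 fold change of eNAMPT in the presence of PDGF-BB minus that in its absence, so 0 means that the separate fold changes multiply. On the linear scale, the excess is the level with both agents minus the level expected when the separate changes in CPM (counts scaled to a fixed library total) are added. A gene that both agents raise can therefore lie below the product of the fold changes and above the sum of the changes at once. Genes were called below or above additivity at a Benjamini-Hochberg adjusted p under 0.05 over all 12111 genes. A gene was called within 1.5-fold of additivity when its whole 95% interval lay within 1.5-fold either way, which does not exclude a smaller departure. The remaining genes were undetermined.

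Gene counts ranged from 2894878 to 4011066 per library, and 16 of the 17 pericyte markers looked at exceeded 1 CPM on average, DES being the other at 0.561 CPM. Of the 13 markers of blood cells, 2 exceeded 1 CPM, CD68 at 3.85 CPM and CSF1R at 2.88 CPM, while the leukocyte genes TYROBP, LYZ and NKG7 and the erythroid gene HBB were at 0 counts in every library. These 13 summed to 4.27 to 8.94 CPM with both agents, 7.44 to 11.8 CPM with PDGF-BB, 5.32 to 10.5 CPM with eNAMPT and 4.60 to 8.72 CPM in control cells. The 11 endothelial markers, mainly ROBO4, summed to 16.8 to 31.4 CPM with both agents, 23.0 to 37.5 CPM with PDGF-BB, 15.0 to 31.7 CPM with eNAMPT and 18.1 to 32.1 CPM in control cells. The 10 neural and glial markers, mainly MBP, summed to 18.4 to 38.7 CPM with both agents, 19.5 to 35.03 CPM with PDGF-BB, 15.3 to 33.8 CPM with eNAMPT and 22.9 to 42.2 CPM in control cells. The 10 epithelial markers, mainly KRT18, summed to 207 to 261 CPM with both agents, 177 to 244 CPM with PDGF-BB, 143 to 191 CPM with eNAMPT and 161 to 203 CPM in control cells. Their part in the results below was not tested, and in bulk libraries fewer cells of a kind and less RNA per cell cannot be told apart. Added spike-in RNA took 2.20% ± 0.416 of counts with both agents, 2.01% ± 0.525 with PDGF-BB, 1.99% ± 0.146 with eNAMPT and 2.03% ± 0.299 in control cells (SD, n = 5 each). No 2 libraries held identical values.

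The sequences of 3 promoters are given because they belong to the protein-coding genes CXCL8, VCAM1 and IL11, a chemokine, an adhesion molecule and a cytokine whose values are given below. They are RefSeq promoters of the GRCh38.p14 build, from 250 bases before to 50 bases after the start of the gene, at chr4:73740319-73740618 on the plus strand for CXCL8, chr1:100719492-100719791 on the plus strand for VCAM1 and chr19:55370414-55370713 on the minus strand for IL11. Capitals mark matches on either strand to 4 motifs. The long NF-kB form is GGG and CC with any 5 bases between, the short NF-kB form is GGANNTTCC, the AP-1 site is TGANTCA, and the interferon response form is a pair of GAAA with any 2 bases between.
CXCL8: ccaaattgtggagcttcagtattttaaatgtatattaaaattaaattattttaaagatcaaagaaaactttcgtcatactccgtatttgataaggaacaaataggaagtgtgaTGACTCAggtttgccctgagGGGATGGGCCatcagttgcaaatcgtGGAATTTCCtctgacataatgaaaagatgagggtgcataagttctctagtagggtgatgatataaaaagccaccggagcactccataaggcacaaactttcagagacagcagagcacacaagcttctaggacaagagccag
VCAM1: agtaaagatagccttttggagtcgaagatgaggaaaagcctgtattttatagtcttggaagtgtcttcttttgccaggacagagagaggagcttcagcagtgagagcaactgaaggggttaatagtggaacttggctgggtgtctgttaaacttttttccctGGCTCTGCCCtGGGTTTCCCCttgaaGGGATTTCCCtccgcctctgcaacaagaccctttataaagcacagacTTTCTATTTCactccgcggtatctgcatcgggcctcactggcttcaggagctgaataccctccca
IL11: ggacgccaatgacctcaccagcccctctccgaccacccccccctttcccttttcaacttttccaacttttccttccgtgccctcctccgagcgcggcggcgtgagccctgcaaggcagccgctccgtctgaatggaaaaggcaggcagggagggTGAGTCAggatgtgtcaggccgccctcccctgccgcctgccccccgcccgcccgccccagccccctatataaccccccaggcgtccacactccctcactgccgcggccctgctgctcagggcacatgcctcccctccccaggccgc
The CXCL8 window held TGACTCA at -137, GGGATGGGCC at -117 and GGAATTTCC at -91, counted from the RefSeq start at 73740569, which lies 63 bases inside the GENCODE gene start given for CXCL8 below; for VCAM1 and IL11 the 2 annotations give the same start. The VCAM1 window held 3 matches to the long NF-kB form, at -88, -77 and -62, and 1 to the interferon response form on the opposite strand at -15. The IL11 window held TGAGTCA at -96 and no match to either NF-kB form. The marked matches did not overlap each other. Among 35116 promoters of the same length, 58.7% held the long NF-kB form, 4.56% the short one, 7.71% the AP-1 site and 3.57% the interferon response form. A match describes these letters and is not evidence of a bound factor.

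The other printed sequences are of small RNAs whose counts departed from additivity. SCARNA22 is a small RNA of the class found in Cajal bodies and lies at chr4:1974636-1974760 on the plus strand, within the gene NSD2. RNU4ATAC is the U4atac RNA of the minor spliceosome and lies at chr2:121530881-121531007 on the plus strand, within the gene CLASP1. Both transcripts are from GENCODE 29 on GRCh38, are 125 and 127 bases long, and are shown whole with no part marked.
SCARNA22: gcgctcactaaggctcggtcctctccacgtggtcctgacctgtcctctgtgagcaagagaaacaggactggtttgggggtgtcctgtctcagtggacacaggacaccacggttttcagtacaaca
RNU4ATAC: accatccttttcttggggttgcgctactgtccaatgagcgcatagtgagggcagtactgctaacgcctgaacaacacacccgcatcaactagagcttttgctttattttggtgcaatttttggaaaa

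Few genes departed from additivity. On the log2 scale 6 genes lay below it (0.0495% of those tested) and 1 above (0.00826%), by edgeR's quasi-likelihood test with replicate number as a block. The 6 were VCAM1, CXCL8, FAM53C, SNORD13, SCARNA22 and RNU4ATAC, and the 1 above was IL11. A further 6027 genes (49.8%) lay within 1.5-fold of additivity and 6077 (50.2%) were undetermined. At an unadjusted p under 0.05 there were 344 genes below (2.84%) and 318 above (2.63%), 5.47% together. Against the sum, 3 genes lay below (0.0248%), SNORD13, SCARNA22 and FAM53C, and 3 above (0.0248%), CXCL8, IER3 and IL11, by limma on CPM with the same block. There, 5877 genes (48.5%) lay within 1.5-fold of the sum and 6228 (51.4%) were undetermined, and 5559 genes were within 1.5-fold on both scales.

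These calls rest on the block and on the scaling. Without the block, 0 genes passed on the log2 scale, with 406 at an unadjusted p under 0.05, and CXCL8 alone passed on the linear scale (adjusted p 0.0176), where 423 had an unadjusted p under 0.05. With the block, DESeq2 passed VCAM1 only (612 at an unadjusted p under 0.05) and limma-voom passed VCAM1, IL11, SNORD13 and RNU4ATAC. Scaling by spike-in counts moved the median interaction of all genes to -0.17, against 0.001 with TMM scaling, and 0 genes then passed on either scale, with 375 (log2) and 384 (linear) at an unadjusted p under 0.05. Leaving out 1 library gave 3 to 11 genes called on the log2 scale and 3 to 9 on the linear scale.

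**Figure D1:**
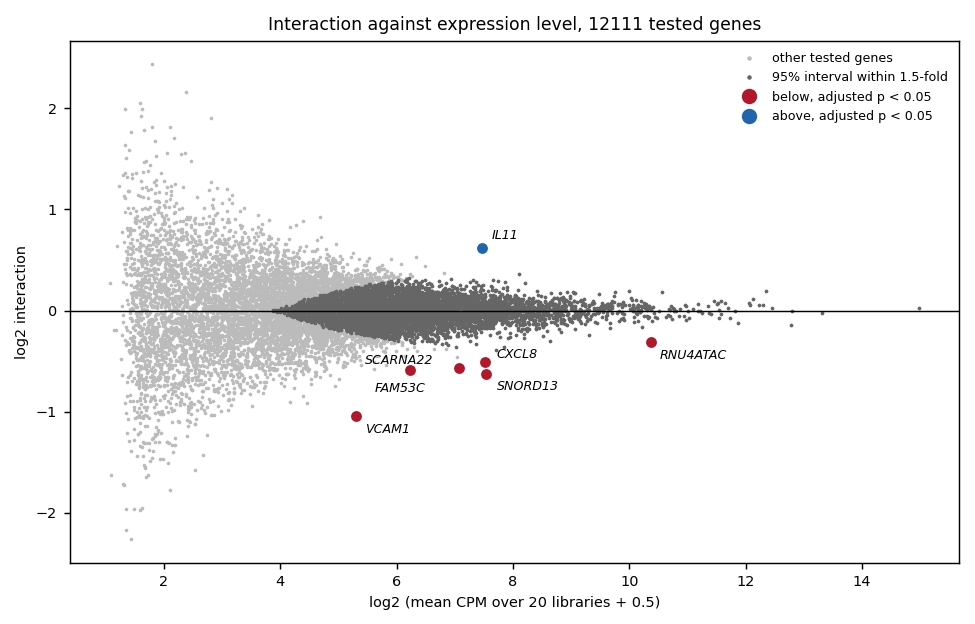
Log2 interaction (y axis) against expression level (x axis, log2 of the mean CPM over 20 libraries plus 0.5) for 12111 tested genes. The 6 genes below additivity are red and the 1 above is blue, and dark grey marks the 6027 genes whose 95% interval lies within 1.5-fold, which are mostly the more highly expressed ones.

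CXCL8, which encodes the neutrophil chemokine interleukin 8 (ENSG00000169429, chromosome 4, 73740506 to 73743716), rose with each agent and rose further with both. It stood at 341, 330.2, 420.0, 404 and 431 CPM in the 5 libraries with both agents and at 142, 148, 169, 162 and 222 CPM with PDGF-BB. It stood at 119.5, 152, 131, 104 and 188 CPM with eNAMPT and at 45.0, 42.0, 47.6, 24.8 and 53.2 CPM in control cells. Every library with both agents was above every library of the other groups, and the single-agent groups overlapped each other. The mean of 385 ± 46.4 CPM (SD, n = 5) compared with 265 CPM expected from the sum and 551 CPM from the product. The excess over the sum was 120.3 CPM (SE 13.2, adjusted p 6.34e-12 by limma), positive in 5 of 5 replicate numbers. That fit assumes the same spread in all groups. Without the block, the adjusted p was 0.0176 by limma. The delta method without the block, where the spread follows the group mean, gave an SE of 27.0 CPM and an adjusted p of 0.751. The log2 interaction was -0.50 (SE 0.12, adjusted p 0.0451 by edgeR), negative in 5 of 5. The linear call held in all 20 fits that left out 1 library. The log2 call ended in 12 of them, at -0.53 to -0.37 with adjusted p of 0.054 to 0.37: those without PDGF-BB replicate 1, 3, 4 or 5, NAMPT+PDGF-BB replicate 1, 2, 3 or 5, NAMPT replicate 2 or 5, or ctrl replicate 4 or 5.

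VCAM1, the adhesion molecule that binds leukocyte integrins (ENSG00000162692, chromosome 1, 100719742 to 100739045), rose with each agent alone and by less when the other agent was present. It stood at 46.8, 58.2, 58.2, 73.8 and 51.9 CPM with both agents, at 47.5, 31.3, 44.0, 42.2 and 40.9 CPM with PDGF-BB and at 41.7, 40.9, 41.4, 50.4 and 37.5 CPM with eNAMPT. In control cells it stood at 21.7, 7.75, 12.5, 13.4 and 17.7 CPM, below every treated library. The groups with both agents, PDGF-BB and eNAMPT overlapped. The log2 fold change of eNAMPT was 0.50 on top of PDGF-BB (adjusted p 0.0876 by edgeR) and 1.54 without it (adjusted p 2.77e-15). The interaction of -1.05 (SE 0.20, adjusted p 0.002 by edgeR) was negative in 5 of 5 replicate numbers and was called in all 20 fits that left out 1 library. The mean of 57.8 CPM was 0.483 times the 119.5 CPM expected from the product. On the linear scale VCAM1 lay within 1.5-fold of additivity, at -11.2 CPM from the 69.0 CPM expected (SE 4.93, adjusted p 0.838 by limma).

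IER3, an immediate early gene that protects from apoptosis (ENSG00000137331, chromosome 6, 30743199 to 30744554), matched the product of the fold changes and exceeded their sum. It stood at 1877, 1456, 1975, 2158 and 2244 CPM with both agents, at 1225, 1114, 1226, 1258 and 1363 CPM with PDGF-BB, at 1019, 969.3, 1142, 1111 and 1445 CPM with eNAMPT and at 713, 667, 769, 687 and 914 CPM in control cells. All libraries with both agents lay above all those given 1 agent. The mean with both agents was 1942 CPM, against 1624 CPM from the sum and 1876 CPM from the product. The excess was 318 CPM (SE 57.4, adjusted p 0.000582 by limma), positive in 5 of 5 replicate numbers and called in all 20 fits that left out 1 library. All of those fits held the block. Without the block, the adjusted p was 0.99966 by limma. The delta method without the block gave an SE of 120.6 CPM and an adjusted p of 0.999. The log2 interaction was 0.04 (95% interval -0.08 to 0.17). IER3 shares exon positions with the antisense gene IER3-AS1, and whether the counting used strand is not given in the sources used here.

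IL11, a cytokine of the IL6 family (ENSG00000095752, chromosome 19, 55364389 to 55370463), was the gene above additivity on both scales. It stood at 209, 181, 312, 304 and 264 CPM with both agents and at 214, 198, 249, 286 and 211 CPM with PDGF-BB, and these groups overlapped. It stood at 88.2, 85.0, 96.7, 83.2 and 103 CPM with eNAMPT and at 122, 87.5, 201, 116 and 131 CPM in control cells, where replicate 3 was the highest and replicate 2 lay within the eNAMPT range. The log2 fold change of eNAMPT was 0.12 on top of PDGF-BB (adjusted p 0.944 by edgeR), whereas alone eNAMPT gave -0.50 (adjusted p 2.73e-05). The interaction was 0.62 (SE 0.11, adjusted p 0.000968 by edgeR), positive in 4 of 5 replicate numbers. The excess over the sum was 62.6 CPM (SE 13.7, adjusted p 0.0245 by limma). The log2 call ended without ctrl replicate 3 (0.47, adjusted p 0.0594 by edgeR). The linear call ended in 10 of 20 such fits, at 51.4 to 63.3 CPM with adjusted p of 0.052 to 0.328: those without ctrl replicate 1 or 3, PDGF-BB replicate 1, 3 or 5, NAMPT replicate 3 or 4, or NAMPT+PDGF-BB replicate 3, 4 or 5.

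FAM53C (ENSG00000120709, chromosome 5, 138331935 to 138349729), which encodes a protein of little known function, averaged 66.1 CPM with both, 79.9 CPM with PDGF-BB, 85.1 CPM with eNAMPT and 68.5 CPM in control cells, and neither single agent alone passed against control. It stood at 63.2, 67.4, 63.4, 63.2 and 73.3 CPM with both agents and at 81.5, 75.5, 80.4, 85.4 and 76.6 CPM with PDGF-BB, without overlap. It stood at 84.6, 103, 80.1, 83.2 and 74.8 CPM with eNAMPT, also above the libraries with both agents without overlap. The control cells, at 75.9, 74.6, 55.5, 66.5 and 69.9 CPM, overlapped each of the other groups. The interaction was -0.59 (SE 0.13, adjusted p 0.0449 by edgeR), negative in 5 of 5 replicate numbers, and the excess was -30.4 CPM (SE 6.86, adjusted p 0.0367 by limma). Its exons share positions with CDC25C on the opposite strand. The log2 call ended in 13 of 20 fits that left out 1 library (-0.61 to -0.52, adjusted p 0.0598 to 0.262), which were those without any library of replicate 4, any of replicate 3, NAMPT or NAMPT+PDGF-BB replicate 2, PDGF-BB or NAMPT+PDGF-BB replicate 1, or PDGF-BB replicate 5. The linear call ended in the same 13 and without ctrl replicate 2 (-31.2 to -26.2 CPM, adjusted p 0.0509 to 0.283).

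**Figure D2:**
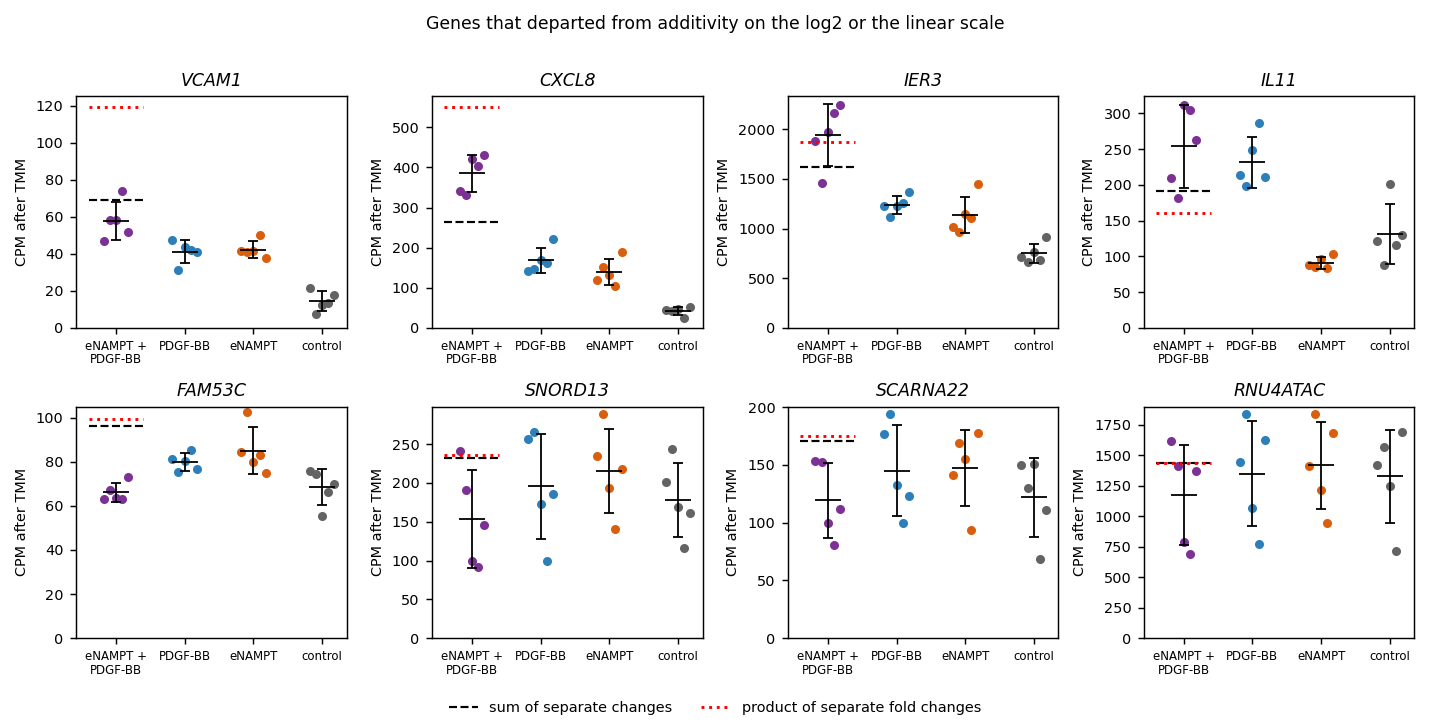
CPM after TMM (y axis, from 0) in each library for the 8 genes called on either scale, by group, with the mean and SD of 5 libraries in black. Dashed lines mark the level expected from the sum of the separate changes and dotted lines that from the product, so that CXCL8 lies between them at 385 CPM and VCAM1 lies below both at 57.8 CPM.

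The small RNAs below additivity had lower means with both agents than with either agent alone, by less than the spread between replicate numbers. SNORD13, a small nucleolar RNA that guides acetylation of ribosomal RNA (ENSG00000239039, chromosome 8, 33513475 to 33513578), stood at 241, 191, 99.8, 91.1 and 146 CPM with both agents and at 256, 265, 172, 99.4 and 185 CPM with PDGF-BB. It stood at 235, 289, 194, 141 and 217 CPM with eNAMPT and at 201, 244, 168, 116 and 161 CPM in control cells. All groups overlapped, and replicate 4 was the lowest of its group in each. The interaction was -0.63 (SE 0.10, adjusted p 0.00015 by edgeR) with the block, and -0.63 with an SE of 0.28 and an unadjusted p of 0.0326 without it. The excess was -78.8 CPM (SE 12.9, adjusted p 5.83e-05 by limma). Both calls held in all 20 fits that left out 1 library. SNORD13 shares exon positions with TTI2 on the opposite strand.

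SCARNA22 (ENSG00000249784), whose sequence is given above, stood at 153, 153, 99.5, 80.8 and 111 CPM with both agents and at 176, 194, 132, 99.4 and 123 CPM with PDGF-BB. It stood at 141, 169, 155, 93.4 and 178 CPM with eNAMPT and at 150.2, 130.1, 150.4, 68.4 and 111 CPM in control cells, and all groups overlapped. The interaction was -0.56 (SE 0.12, adjusted p 0.0111 by edgeR) and the excess -50.8 CPM (adjusted p 0.0165 by limma). The log2 call ended without PDGF-BB replicate 1 or 2, NAMPT replicate 3 or 5, or NAMPT+PDGF-BB replicate 3 (-0.54 to -0.45, adjusted p 0.0531 to 0.205). The linear call ended without PDGF-BB replicate 1 or 2, ctrl replicate 2 or 5, NAMPT replicate 3 or 5, or NAMPT+PDGF-BB replicate 3 or 5 (-48.9 to -40.1 CPM, adjusted p 0.0561 to 0.287).

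RNU4ATAC (ENSG00000264229) stood at 1615, 1409, 786, 691 and 1372 CPM with both agents and at 1445, 1842, 1067, 769 and 1624 CPM with PDGF-BB. It stood at 1412, 1835, 1213, 943 and 1685 CPM with eNAMPT and at 1419, 1569, 1251, 714 and 1689 CPM in control cells, again with all groups overlapping. The interaction was -0.31 (SE 0.07, adjusted p 0.0449 by edgeR) with the block and -0.29 with an SE of 0.27 without it. Its call ended in 14 of 20 fits that left out 1 library (-0.33 to -0.24, adjusted p 0.0516 to 0.432), and the 6 in which it held were those without NAMPT or NAMPT+PDGF-BB replicate 1, ctrl replicate 3 or 5, or PDGF-BB or NAMPT+PDGF-BB replicate 4. Its linear excess missed the threshold (adjusted p 0.058 by limma).

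Small RNAs as a class did not share one direction. Of 21 tested snoRNAs 13 had a negative interaction, with a median of -0.13, and of 9 snRNAs 4 did, with a median of 0.03, beside 49.7% negative over all genes. Only the 3 RNAs described reached an unadjusted p under 0.05 among the tested snoRNAs, scaRNAs and snRNAs. Small RNAs together took 0.174% ± 0.0551 of counts with both agents, 0.200% ± 0.0540 with PDGF-BB, 0.212% ± 0.0461 with eNAMPT and 0.197% ± 0.0470 in control cells (SD, n = 5 each). The part of the recovery of short RNAs in these calls was not tested.

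The genes that responded to eNAMPT included chemokines, the leukocyte adhesion molecule VCAM1 and NF-kB subunits or inhibitors. With both agents, 19 of the 27 responders lay below the product and 18 of 27 above the sum. For genes that both agents raise the product exceeds the sum, so the count above the sum is a description. They were chosen by the effect of eNAMPT pooled over both PDGF-BB settings. Its weights are orthogonal to those of the log2 interaction in this balanced design, but it is not orthogonal to the linear excess. The log2 estimates are independent only where the 4 groups are equally precise, which counts at unlike levels are not. The choice can therefore still push the interaction, and by how much was not tested. A choice by eNAMPT alone would push the interaction one way. By the pooled contrast 27 genes rose (0.223% of those tested) and 0 fell (edgeR, adjusted p under 0.05). They included 5 CXCL chemokines, CCL2, 4 adhesion or innate effector genes, 5 NF-kB subunits or inhibitors and the survival gene BIRC3. On the log2 scale 2 of the 27 lay below additivity, beside 0.0495% of all tested genes, 13 lay within 1.5-fold, 0 lay above and 12 were undetermined. Of the 27 estimates 19 were negative, beside 49.7% of all tested genes, and 8 positive. Their median was -0.18, beside 0.001 over all tested genes. On the linear scale 2 lay above the sum, beside 0.0248% of all tested genes, and 19 lay within 1.5-fold of it. The median ratio of the observed level was 1.07 to the sum and 0.880 to the product. Between the sum and the product lay 10 genes, above the product 8 and below the sum 9. The 27 include CXCL8, VCAM1 and IER3 described above.

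Of these 27 genes, 19 also rose with PDGF-BB pooled over both eNAMPT settings. Among those 19, 10 lay between the sum and the product, 5 above the product and 4 below the sum. CCL2, the monocyte chemokine, is an example between them: it stood at 603 ± 63.5 CPM with both, 357 ± 61.3 CPM with PDGF-BB, 334 ± 62.0 CPM with eNAMPT and 166 ± 34.5 CPM in control cells (SD, n = 5 each). The libraries with both agents lay above all others, and the interaction was -0.25 (SE 0.08, adjusted p 0.525 by edgeR) with an excess of 77.1 CPM (adjusted p 0.153 by limma). The remaining 8 did not pass the pooled PDGF-BB contrast; 3 of them lay above the product and 5 below the sum. NFKBIA, the NF-kB inhibitor IkB-alpha, is one of them: it stood at 245 ± 14.3 CPM with both, 137 ± 10.4 CPM with PDGF-BB, 266 ± 10.1 CPM with eNAMPT and 132 ± 10.6 CPM in control cells (SD, n = 5 each), with an interaction of -0.17 (SE 0.09, adjusted p 0.913 by edgeR).

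**Figure D3:**
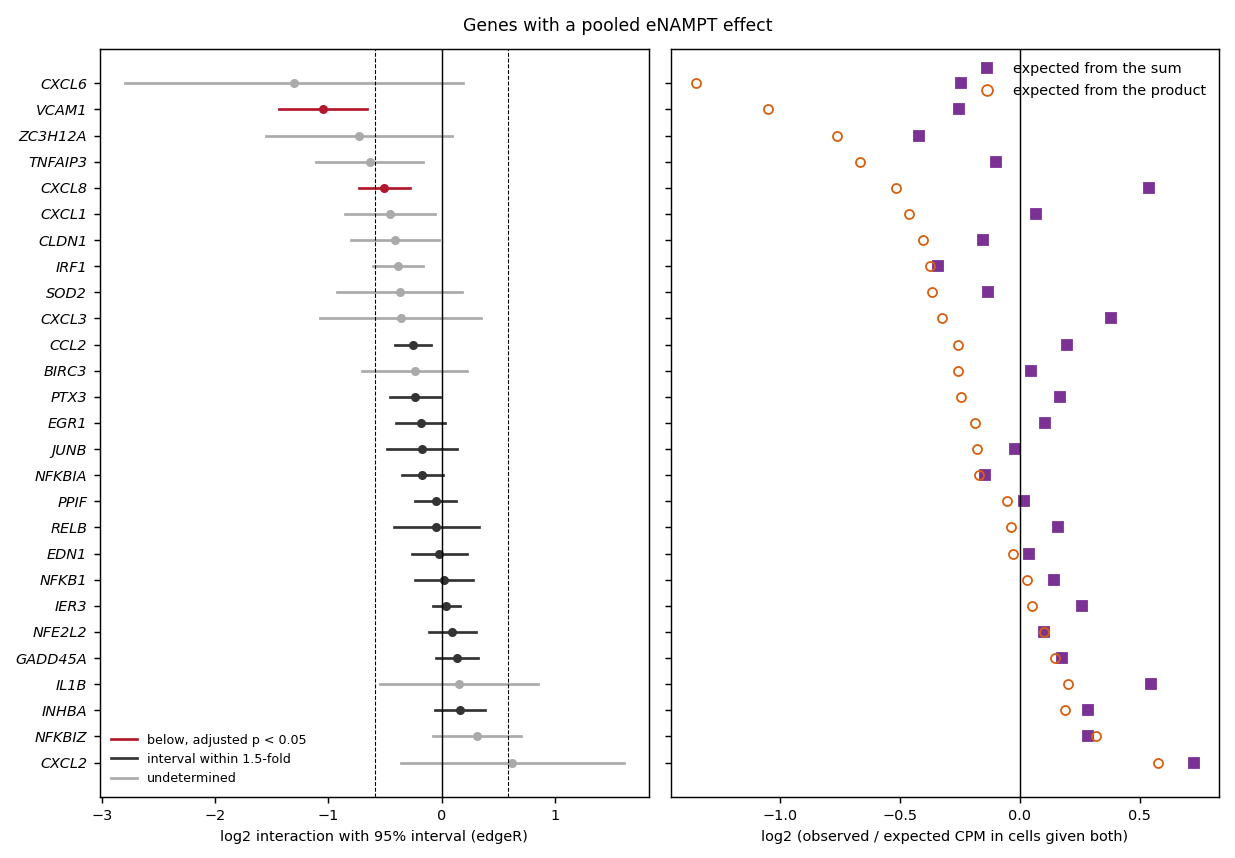
Left, log2 interaction with its 95% interval (x axis) for the 27 genes with a pooled eNAMPT effect (rows), with dashed lines at 1.5-fold; right, log2 of the level with both agents over that expected from the sum (squares) and the product (circles). VCAM1 and CXCL8 are below additivity in red, and 19 of the 27 estimates are negative.

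The CXCL chemokines, which attract neutrophils and other leukocytes, leaned below the product. This list and those below were chosen with earlier results of these data known. Members of a list were measured in the same 20 libraries and are not independent, so their counts are descriptions. Of 8 tested members CXCL8 passed, beside 0.0495% of all tested genes below additivity. Their interactions were negative in 7, beside 49.7% of all tested genes, and positive in 1. The median was -0.31, beside 0.001 over all tested genes. On the log2 scale 6 of the 8 were undetermined, beside 50.2% of all tested genes, and 1 lay within 1.5-fold of additivity. CXCL1 stood at 65.3 ± 7.48 CPM with both, 22.9 ± 5.69 CPM with PDGF-BB, 52.8 ± 6.48 CPM with eNAMPT and 13.5 ± 2.53 CPM in control cells (SD, n = 5 each). Its level with both agents was close to the 62.2 CPM of the sum and had an interaction of -0.46 (SE 0.20, adjusted p 0.886 by edgeR). CXCL6 had the most negative estimate, -1.30, at 4.19 CPM with both, 1.98 CPM with PDGF-BB, 3.67 CPM with eNAMPT and 0.679 CPM in control cells, with an SE of 0.76, and the control libraries held 1 to 3 counts of it.

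Adhesion molecules and innate effectors had negative interactions in 10 of 10 tested members, beside 49.7% of all tested genes, with a median of -0.37. VCAM1 was the 1 that passed, beside 0.0495% of all tested genes below additivity. At an unadjusted p under 0.05 there were 4, beside 2.84% of all genes below additivity. IRF1, a transcription factor of the interferon response, stood at 116 ± 15.8 CPM with both, 107 ± 13.3 CPM with PDGF-BB, 138 ± 22.7 CPM with eNAMPT and 98.6 ± 21.0 CPM in control cells (SD, n = 5 each), with an interaction of -0.38 (SE 0.11, adjusted p 0.409 by edgeR). PTX3, a soluble pattern receptor, had -0.24 and PTGS2, the inducible cyclooxygenase, -0.75, and neither passed. Without 1 library, 8 to 10 members stayed negative.

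The subunits and inhibitors of NF-kB showed no common direction. Of 14 tested members 8 were negative and 6 positive, with a median of -0.04 (13 and 1 under spike-in scaling, median -0.23); 9 lay within 1.5-fold of additivity and 0 passed by edgeR, with 1 at an unadjusted p under 0.05. That member was TNFAIP3, the ubiquitin-editing inhibitor A20, at 36.2 CPM with both, 25.1 CPM with PDGF-BB, 24.3 CPM with eNAMPT and 10.6 CPM in control cells, with an interaction of -0.64 (SE 0.24, adjusted p 0.788 by edgeR). NFKB1, the p105 and p50 subunit, lay at 0.02 and NFKBIZ, a nuclear IkB protein, at 0.32. Of 8 tested TNF receptor adaptors and survival genes 7 were negative, beside 49.7% of all tested genes, with a median of -0.10. None of them passed or had an unadjusted p under 0.05.

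Among 6 tested cytokines of the IL6 and IL1 families and colony stimulating factors, IL11 passed, beside 0.00826% of all tested genes above additivity. Of the 6 interactions 5 were positive, beside 50.3% of all tested genes, with a median of 0.15. Under spike-in scaling 5 were negative (median -0.03). IL1B stood at 22.7 CPM with both, 11.1 CPM with PDGF-BB, 10.1 CPM with eNAMPT and 5.70 CPM in control cells, 1.46 times the sum, with an interaction of 0.15 (SE 0.35). LIF, which also counts among the ERK output genes, stood at 58.6 CPM with both, 43.3 CPM with PDGF-BB, 21.8 CPM with eNAMPT and 18.3 CPM in control cells, with an interaction of 0.14 (SE 0.20). TSLP was the 1 negative member, at -0.73 (adjusted p 0.894 by edgeR).

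ERK output and feedback genes leaned the other way, though none passed singly. Of 19 tested members 18 had a positive interaction, beside 50.3% of all tested genes, and 1 a negative one. Their median was 0.23, beside 0.001 over all tested genes. By edgeR 0 passed, and 4 had an unadjusted p under 0.05 above additivity, beside 2.63% of all genes; DESeq2, limma-voom and edgeR without the block also passed 0 of them. Under spike-in scaling, where the median of all genes was -0.17, 11 were positive and 8 negative with a median of 0.06. On top of PDGF-BB, eNAMPT gave estimates above 0 for 17 of the 19 (median 0.09), beside 6131 of 12111 tested genes. Alone it gave estimates below 0 for 14 (median -0.15), beside 6081 of 12111 tested genes. The interaction is the difference of these effects, so their signs describe it and are not separate support. By edgeR 0 of 19 were called in either comparison, beside 0.124% of all tested genes on top of PDGF-BB and 0.173% alone.

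DUSP6, the cytoplasmic phosphatase that inactivates ERK, shows the pattern. It stood at 122, 127, 123, 137 and 114 CPM with both agents and at 107, 91.6, 116, 123 and 108 CPM with PDGF-BB. It stood at 37.6, 44.1, 44.4, 21.0 and 40.2 CPM with eNAMPT and at 53.5, 42.0, 72.2, 30.2 and 39.9 CPM in control cells. The groups with PDGF-BB lay above those without it and each pair overlapped. Its interaction was 0.53 (SE 0.16, adjusted p 0.409 by edgeR), positive in 5 of 5 replicate numbers. The nuclear phosphatase gene DUSP1 had an interaction of 0.57, PHLDA1 0.31 and HBEGF, an EGF-like growth factor, 0.25, with adjusted p of 0.712, 0.573 and 0.864 by edgeR. Immediate early genes had 16 positive and 4 negative interactions among 20 tested, beside 50.3% positive over all tested genes, with a median of 0.13. Under spike-in scaling 9 were positive and 11 negative (median -0.04). The largest departure by p was IER2 at 0.30 (adjusted p 0.466 by edgeR), while EGR1 lay at -0.18.

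Interferon-induced genes, many of which encode antiviral proteins, were negative in 22 of 25 tested members, beside 49.7% of all tested genes, with a median of -0.13. By edgeR 0 passed and 6 had an unadjusted p under 0.05 below additivity, beside 2.84% of all genes; DESeq2, limma-voom and the fit without the block also passed 0. MX1, an antiviral GTPase, lay just outside the threshold: it stood at 251, 253, 187, 303 and 230.0 CPM with both agents and at 274, 273, 209, 292 and 198 CPM with PDGF-BB. It stood at 193, 230.2, 142, 219.6 and 171 CPM with eNAMPT and at 165, 218, 99.5, 153 and 116 CPM in control cells, with all groups overlapping. Its interaction was -0.39 (SE 0.10, adjusted p 0.141 by edgeR), negative in 5 of 5 replicate numbers, and it passed without ctrl replicate 2, without NAMPT+PDGF-BB replicate 5 or with no filter on low counts. IFI44L had -0.46 and the RNA sensor gene OAS2 -0.45. On top of PDGF-BB, eNAMPT gave estimates above 0 for 10 of the 25, beside 6131 of 12111 tested genes (0 called, beside 0.124%). Alone it gave them for 20, beside 6030 of 12111 (2 called, beside 0.173%). PDGF-BB alone gave estimates above 0 for 24, beside 5911 of 12111 (16 called, beside 3.11%). These comparisons share libraries with the interaction. Besides MX1 and IFI44L, PTK7, a pseudokinase of Wnt signalling, lay next to the threshold at -0.36 (adjusted p 0.141 by edgeR), and RNU4ATAC and CXCL8 lay just inside it.

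**Figure D4:**
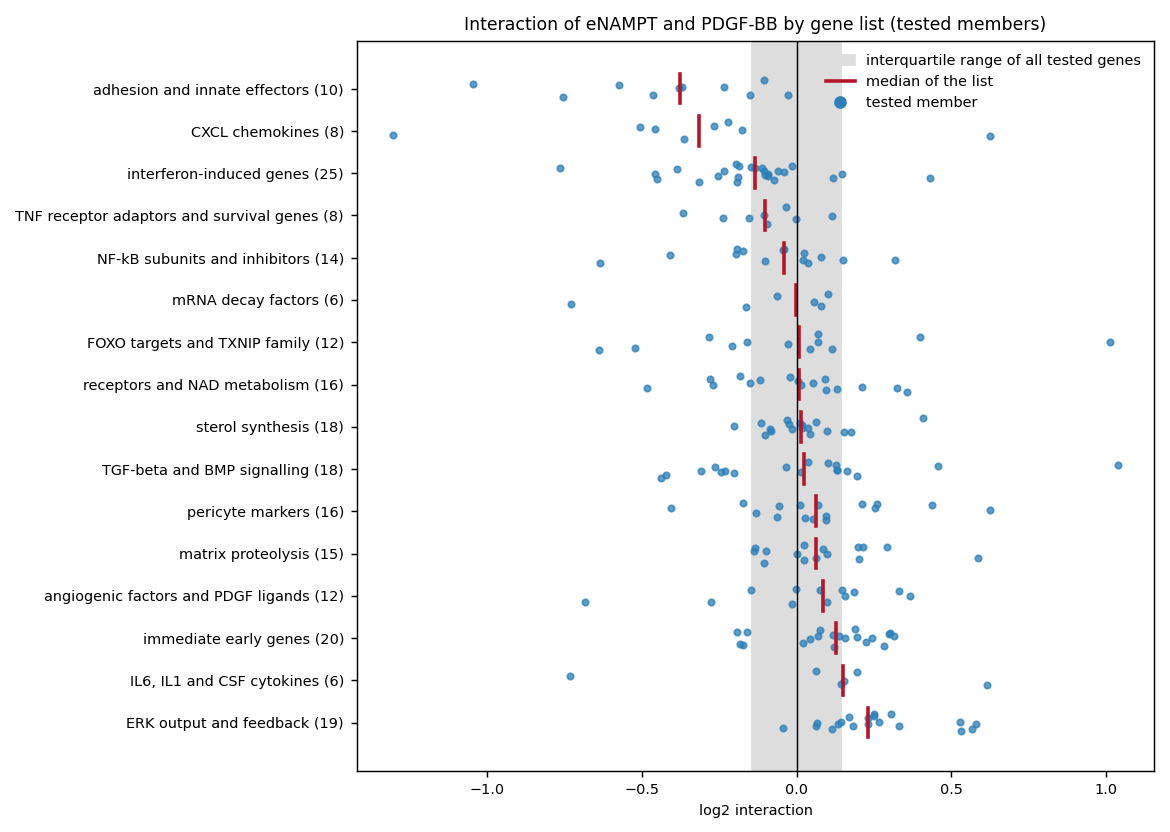
Log2 interaction (x axis) of each tested member (points) of the 16 gene lists with at least 5 tested members (rows, number tested in brackets), with the list median in red and the interquartile range of all tested genes in grey. Adhesion and innate effectors (median -0.37) and CXCL chemokines (-0.31) lie lowest and ERK output and feedback genes (0.23) highest.

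Most genes that responded to PDGF-BB lay near additivity. Pooled over both eNAMPT settings, 633 genes rose (5.23%) and 325 fell (2.68%) by edgeR. Over all tested genes, 49.8% lay within 1.5-fold of additivity on the log2 scale, 0.0495% below and 0.00826% above. Of the 633, 472 lay within 1.5-fold, 2 below and 1 above. Of the 325, 208 lay within 1.5-fold, 2 below and 0 above. The medians were 0.03 and -0.03. The intervals of these genes were narrower than those of all genes, with a median SE of 0.13 for the risers and 0.17 for those that fell, beside 0.21 over all. The growth factor gene PDGFA had an interaction of 0.16, the activin subunit gene INHBA 0.16 and STC1, a secreted glycoprotein hormone, 0.36 (adjusted p 0.208 by edgeR), all within 1.5-fold. Among those that fell, FZD2, a Wnt receptor, had -0.04 and SLC38A2, an amino acid transporter, -0.02.

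The receptor genes PDGFRB and TLR4 did not pass the interaction test. PDGFRB stood at 136 ± 12.6 CPM with both, 134 ± 14.4 CPM with PDGF-BB, 117 ± 14.9 CPM with eNAMPT and 133 ± 11.4 CPM in control cells (SD, n = 5 each), with an interaction of 0.21 (adjusted p 0.91 by edgeR). TLR4 stood at 30.5 CPM with both, 31.6 CPM with PDGF-BB, 28.1 CPM with eNAMPT and 37.2 CPM in control cells, with 0.36 (95% interval -0.03 to 0.74). The gene NAMPT itself had an interaction of -0.02 (95% interval -0.29 to 0.25). Medians were near that of all genes for sterol synthesis (18 tested, 0.01), TGF-beta and BMP signalling (18 tested, 0.03), FOXO targets (12 tested, 0.01), receptors and NAD metabolism (16 tested, 0.01) and mRNA decay factors (6 tested, -0.00), and 0 members of these lists passed by edgeR. Angiogenic factors (12 tested, 0.09), matrix proteolysis (15 tested, 0.06) and pericyte markers (16 tested, 0.06) also had 0 passing, as did the 3 endothelial, 2 leukocyte, 3 epithelial and 1 neural or glial markers tested. At an unadjusted p under 0.05 these 8 lists held 9 of 111 distinct genes tested, beside 5.47% of all tested genes. Under spike-in scaling their medians were -0.17 to -0.09, beside -0.17 over all tested genes.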

How the data were processed

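Total RNA of 20 pericyte libraries was sequenced on an Illumina NextSeq 500, per the labels' protocols. FastQC 0.11.7, STAR 2.6.1a, featureCounts 1.6.4, DESeq2 1.18.1 and GRCh38 were used, per the submitters' processing notes, which do not give their roles. The deposited values are raw counts per gene, not normalized by the authors; 92 ERCC and 7 SIRV spike-in rows were removed here. What separates the deposited count tables is not stated; the one that also holds the group comparisons was used, and the other served as an alternative.

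Genes kept by edgeR's filterByExpr were scaled by TMM and fitted in edgeR 4.0.16 (R 4.3.3) with a term for each of the 4 groups and replicate number as a block. The contrast was (both minus PDGF-BB) minus (eNAMPT minus control), tested two-sided with Benjamini-Hochberg adjustment. For the linear scale, CPM after TMM, divided by the mean of each gene over 20 libraries, was fitted in limma 3.58.1 with the same terms and a variance trend. All 58676 gene IDs matched GENCODE 29. Promoters from RefSeq covered 89 of the 114 genes chosen to be named.

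Named genes, averaging log2 CPM 1 or more, were the 10 with the smallest p below and above additivity on each scale, up to 25 genes with a pooled eNAMPT effect, and the 10 smallest p each way for PDGF-BB. Up to 4 members of each of 21 lists by p, with NAMPT, PDGFRB, PDGFRA and TLR4, were added without a minimum level. The members and lists were chosen with earlier results of these data known. The result of 1 gene that this rule names is not reported here.

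Tested on simulated data, the log2 test of the interaction over 12111 genes recovered 38% of 50 genes set to 0.5, 86% at 1 and 100% at 1.5 and 2, with 7 false calls. The linear test called 69% of 100 genes made as the product of 2-fold rises above the sum, and 0% of 100 made as the sum, with 3 false calls. The changed genes were drawn from the more highly expressed ones only, and the simulated counts held no difference between replicate numbers. These figures therefore do not cover genes with low counts, nor how far calls that rest on the block can be trusted. Alternatives were DESeq2 1.42.0, limma-voom, RLE or spike-in scaling, other filters, thresholds, the other table, no block, and leaving out each library. Gene counts were 2894878 to 4011066 per library and the median SE of the log2 interaction was 0.21. The part of depth in that SE was not tested.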

Additional observations from a re-analysis of the deposited data

Results flagged for a closer look

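The effect of eNAMPT differed with and without PDGF-BB, by the interaction term itself, for 7 genes on the log2 scale (edgeR): VCAM1 by -1.05, SNORD13 by -0.63, FAM53C by -0.59, SCARNA22 by -0.56, CXCL8 by -0.50, RNU4ATAC by -0.31 and IL11 by 0.62. On the linear scale (limma) it differed for 6 genes: IER3 by 318 CPM, CXCL8 by 120.3 CPM, IL11 by 62.6 CPM, SNORD13 by -78.8 CPM, SCARNA22 by -50.8 CPM and FAM53C by -30.4 CPM. CXCL8 is in both with opposite signs, since it lay below the product and above the sum.

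Single libraries stood far from the other 4 of their group in 7 of 120 groups looked at, where chance marks about 1 in 20. With eNAMPT alone, replicate 4 was low for CXCL1 (41.4 CPM) and TNFAIP3 (16.3 CPM), and replicate 5 was high for PTX3 (159 CPM). In control cells, replicate 5 was high for CCL2 (226 CPM) and EDN1 (117 CPM), replicate 1 was low for EGR1 (56.9 CPM) and replicate 4 was low for IL1B (1.87 CPM). None of these 7 genes was called below or above additivity.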

How the results depend on the processing

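On the log2 scale, 6 genes were below and 1 above. The counts were 0 and 0 without the replicate block, 0 and 0 with spike-in scaling, and 1 and 0 with DESeq2. Below additivity there were 3 with limma-voom, 2 at an adjusted p of 0.01 and 3 in the other table; with no filter 3 were above. Against the sum, 3 genes were below and 3 above. The counts were 0 and 1 without the block, 0 and 0 with spike-in scaling, 1 and 1 with no filter, and 0 and 0 with the delta method without the block; at 0.01, 1 was below. Leaving out 1 library gave 2 to 8 below and 0 to 3 above on the log2 scale, 1 to 4 below and 2 to 6 above on the linear scale, 24 to 34 genes with a pooled eNAMPT effect (27 with all libraries) and 795 to 915 with a pooled PDGF-BB effect (958). With spike-in scaling 14 genes had a pooled eNAMPT effect and 176 a pooled PDGF-BB effect, and their overlap with the genes above was not counted. Without the block 480 genes had a pooled PDGF-BB effect, and 568 at 0.01. The cause of these changes was not tested. Fewest log2 calls, 3, came without PDGF-BB replicate 1 or NAMPT+PDGF-BB replicate 3, and most, 11, without ctrl replicate 2. No direction of a called gene reversed in the alternatives run; of the 114 named genes, 25 estimates changed sign in at least 1.

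The labels do not say what a shared replicate number marks. Deviations from group means correlated above 0.1 in 25 of 30 same-numbered pairs of libraries (0.0096 to 0.355, median 0.20). Of the pairs with different numbers, 12 of 120 did (median -0.05). In 19 of 20 libraries the best correlation was with their own number. This is a hint from the data and not the design, so the numbers are not established pairs. The block and the counts of signs by replicate number nonetheless treat libraries of the same number as matched. The block was kept because the contrast is defined with it. On the log2 scale 6077 of 12111 tested genes were undetermined, and the part of sequencing depth in this was not tested.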
